A study of Mus musculus with 4 samples.

Results

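Interleukin 17 and Tmem176 expressing T cell barcodes of the MB49 tumour were selected on 4 transcripts. A barcode was chosen if it held at least 1000 UMIs (unique molecular identifiers, 1 for each captured transcript), 500 genes and at most 10% mitochondrial UMIs, at least 1 UMI of Cd3d, Cd3e or Cd3g, no Lyz2, and either 1 UMI of Il17a or Il17f or 3 UMIs of Tmem176a and Tmem176b together. The rule found 619 of 9405 kept barcodes in the WT library and 543 of 8410 in the KO library, which makes 1162 of 17815 in these libraries and of 37151 kept barcodes in the whole series. The working name of the set, interleukin 17 and gamma-delta like T cells, was checked against the receptor genes, and its gamma-delta part went against the data: Trac without Trdc was found in 525 of 619 WT and 509 of 543 KO barcodes, and Trdc without Trac in 7 and 2. The set is therefore called the Il17 or Tmem176 barcodes here. Its comparison set was formed by the other Cd3 positive barcodes with at least 1 UMI of Cd8a or Cd8b1, 8419 in WT and 7642 in KO.

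Interleukin 17A and interleukin 17F are cytokines of barrier immunity that act on epithelial and stromal cells and draw in neutrophils. They are made by T helper 17 cells, by gamma-delta T cells and, in smaller numbers, by CD8 T cells named Tc17, which share the receptors for interleukin 1 and interleukin 23 and the chemokine receptor CCR6. TMEM176A and TMEM176B are membrane proteins of intracellular vesicles whose genes are adjacent and are known for high expression in type 17 lymphocytes and in dendritic cells. In tumours, Tc17 cells are known for low cytotoxic gene expression.

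The WT library came from subcutaneous tumours of MB49, a mouse bladder carcinoma line, grown in WT mice of the strain C57BL/6Slac aged 10 to 12 weeks. The KO library came from the same tumours in BFAR-CD8-KO mice of that strain and age, named for a deletion in CD8 cells of Bfar, the gene of a membrane bound ubiquitin ligase. The sources used here do not name the driver of the deletion. Each library pooled cells of 3 mice sorted for CD45 and CD8, so there was 1 library per group, no spread between mice, and no test: intervals are 95% and cover counting error only. The pair of transfer libraries, also of 3 mice each, held CD8 T cells of young (8 weeks) or old (18 months) donors from MB49 tumours of Rag1-/- hosts and were made with another kit. The age label of both is 8 to 10 weeks. They are used below only to count the rule.

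The files held 85401443 UMIs in 9746 WT barcodes and 72752583 UMIs in 8665 KO barcodes. Of the kept barcode sequences, 19 occurred in both libraries, 1 chosen WT and 1 chosen KO barcode were among them, and none was chosen in both. Bfar itself stood at 24.9 CPM (counts per 1000000 UMIs) in KO against 32.7 CPM in WT among the chosen barcodes, a ratio of 0.76 (0.63 to 0.91). It stood at 22.2 against 31.9 CPM among the other CD8 T barcodes. The sources used here do not say which exons the deletion removes, so UMIs counted from transcript ends do not show whether the deletion is complete.

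The rule took barcodes of several kinds. The Il17 condition was met by 220 WT and 225 KO barcodes, the Tmem176 condition by 515 and 443, and both together by 116 and 125. Il17 UMIs were concentrated in few barcodes. The median barcode of the Il17 condition held 2 UMIs of Il17a and Il17f in WT and 3 in KO, the highest held 128 and 133, and 94 and 67 held exactly 1. Il17a alone was found in 104 WT and 113 KO barcodes, Il17f alone in 50 and 48, and both cytokine genes in 66 and 64. These are descriptions of what the rule used. The median barcode of the Tmem176 condition held 6 UMIs in WT and 5 in KO, and 108 and 118 sat on the threshold of 3.

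**Figure D1:**
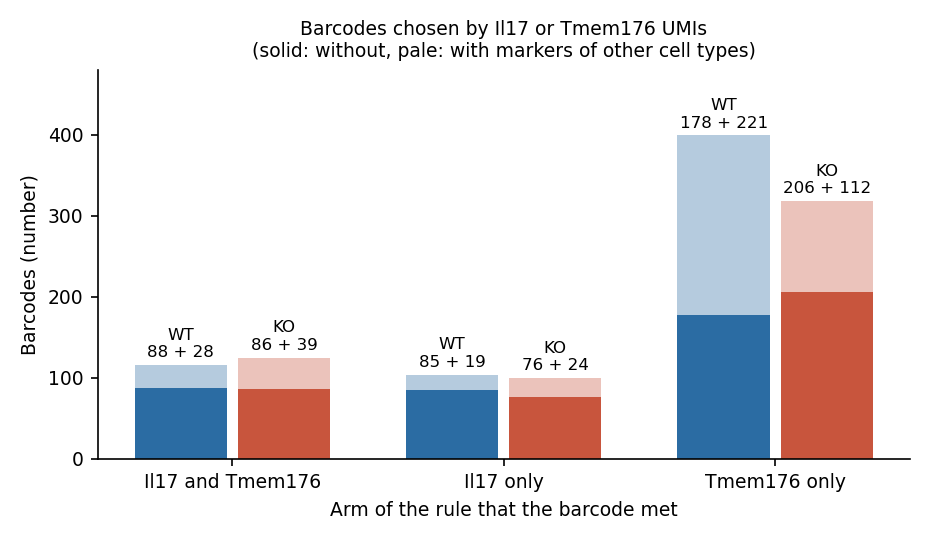
Number of chosen barcodes (vertical axis) that met both conditions of the rule, the Il17 condition only or the Tmem176 condition only (horizontal axis), in WT (blue) and KO (red). Solid bars count barcodes without markers of other cell types and pale bars those with them. The pale part is largest in the Tmem176 only bars, 221 of 399 barcodes in WT and 112 of 318 in KO.

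The sequence before the start of the rule's genes and of their type 17 partners was read for a nuclear receptor motif. The 250 bases before the start annotated by RefSeq (build GRCm38.p6) were searched for AGGTCA, the half-site of nuclear receptors, on both strands. Of 7 genes looked for (Il17a, Il17f, Tmem176a, Tmem176b, Il22, Il1r1 and Ccr6), all 7 were in the table, with 12 windows in all where a gene has several annotated starts. The motif was in 3 of these 12 windows and in 14.0% of all 32851 windows of this length. The 3 are shown because they hold the motif: Il17a and Il17f define the set, and Ccr6 is a type 17 receptor with a second window that does not hold it. Capitals mark the motif, written as TGACCT where it lies on the other strand, and the windows are chr1:20730655-20730904 on the plus strand for Il17a, chr1:20784271-20784520 on the minus strand for Il17f and chr17:8235793-8236042 on the plus strand for Ccr6.
Il17a: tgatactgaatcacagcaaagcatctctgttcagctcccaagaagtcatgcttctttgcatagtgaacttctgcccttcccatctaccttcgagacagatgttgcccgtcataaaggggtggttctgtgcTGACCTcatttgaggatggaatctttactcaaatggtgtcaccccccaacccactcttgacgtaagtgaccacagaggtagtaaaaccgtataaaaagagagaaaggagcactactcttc
Il17f: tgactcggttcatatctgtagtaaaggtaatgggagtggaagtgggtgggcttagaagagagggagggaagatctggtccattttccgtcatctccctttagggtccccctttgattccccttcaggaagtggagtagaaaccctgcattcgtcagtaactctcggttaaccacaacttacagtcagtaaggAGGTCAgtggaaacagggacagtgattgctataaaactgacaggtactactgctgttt
Ccr6: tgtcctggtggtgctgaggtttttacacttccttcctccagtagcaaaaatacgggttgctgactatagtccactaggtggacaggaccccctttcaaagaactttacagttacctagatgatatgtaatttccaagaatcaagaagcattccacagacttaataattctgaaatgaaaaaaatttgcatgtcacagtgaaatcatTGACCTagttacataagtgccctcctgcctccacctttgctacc
The motif begins 120 bases before the start of Il17a, 58 before that of Il17f and 44 before that of Ccr6. The windows of Il22, Il1r1, Tmem176a and Tmem176b did not hold these letters. A match describes the sequence and does not show that a factor binds it. In the build of the files (mm10, GENCODE annotation M21), Il17a spans chr1:20730905-20734496 and Il17f chr1:20777146-20790617, where a longer Il17f transcript starts upstream of the window. Tmem176a spans chr6:48840919-48847071 and Tmem176b chr6:48833818-48841496, which overlap on opposite strands, so UMIs of 1 could be counted for the other and the rule takes their sum.

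Markers of other cell types divided the chosen barcodes sharply. Each barcode was checked against 9 marker lists (macrophage, dendritic, plasmacytoid dendritic, mast or basophil, neutrophil, B cell, tumour or epithelial, fibroblast and endothelial), and 2 or more UMIs of any list were found in 268 of 619 WT barcodes and 175 of 543 KO barcodes. Such barcodes were deep, with a median of 27397 UMIs in WT and 14549 in KO, against 6269 and 7388 for the chosen barcodes without them. They carried 77.7% of the WT set's UMIs and 54.2% of the KO set's. Tumour or epithelial markers were found in 171 WT barcodes (27.6%, 24.1 to 31.3) and 56 KO barcodes (10.3%, 7.88 to 13.2), against 5.12% and 4.83% of the other CD8 T barcodes. Fibroblast markers were found in 25.0% and 6.08%, against 0.855% and 0.0393%. Most of this lay in the Tmem176 only barcodes, of which 39.1% in WT and 15.1% in KO had tumour markers, against 6.82% and 3.56% of those with Il17. Endothelial markers were the exception: they were found in 21 WT (9.55%) and 34 KO barcodes (15.1%) with Il17, against 1.58% and 2.43% of the other CD8 T barcodes. In these, Pecam1, an adhesion molecule also made by T cells, gave all 52 UMIs of the endothelial list in WT and 88 in KO, where Esam gave 1, and Cdh5, Kdr and Emcn, which define endothelial cells, had no UMI. These barcodes were still counted as having other-type markers. Pecam1 also stood higher in the chosen barcodes without such markers than in the other CD8 T barcodes without them, at log2 ratios of 1.32 in WT and 1.05 in KO. Because Pecam1 was counted in this check, no barcode of either set could hold 2 of its UMIs, and these ratios are of capped counts.

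Summed over all chosen barcodes, the genes that stood highest were those of tumour and stromal cells. A gene was called when it was at least 2 times higher or lower in both libraries, and 627 of 7708 measured genes (8.13%) were called higher and 54 (0.701%) lower. By the rule for named genes, the 12 highest were Fgb, Tm4sf1, Sox9, Mgp, Wfdc2, Rhox5, Cp, Clu, Serpinh1, Sdc1, Nupr1 and Trf. Fgb, the fibrinogen beta chain, stood at 3322 CPM in the WT set against 27.8 CPM in the other CD8 T barcodes and at 1144 against 1.13 CPM in KO. Krt8, a keratin of simple epithelia, stood at 1289 against 11.9 CPM in WT and 474 against 0.54 CPM in KO. Without the barcodes that held other-type markers, Fgb was at 6.41 against 4.55 CPM in WT and 1.54 against 1.20 CPM in KO. The 12 lowest over all chosen barcodes were Mcpt1, Eomes, Gzmk, Ccl5, Ly6c2, Dapl1, Bend4, Wdr95, Ifi214, Plac8, Gimap7 and Mctp2, where Mcpt1 is a mast cell protease.

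For this reason the genes below are given for the 351 WT and 368 KO chosen barcodes without other-type markers, called the marker-free set, beside 6657 and 6200 other CD8 T barcodes filtered in the same way. This choice was made after the values were seen. Median depths were close: 6269 UMIs against 5838 in WT and 7388 against 6376 in KO. The marker-free set made up 3.73% of kept barcodes in WT (3.36 to 4.14) and 4.38% in KO (3.95 to 4.83). The marker filter used the fibroblast list, so few of its UMIs could remain: 4 of its 7 genes had 7 UMIs in WT and 2 had 4 UMIs in KO, and Col1a2, Lum and Pdgfra were at 0 in both. The filter used the tumour or epithelial list too, so no barcode of either set could hold 2 of its UMIs. Of its 8 markers, 5 had UMIs in WT and 4 in KO, and their summed level was 17.7 and 18.5 CPM, against 24.5 and 19.8 CPM in the other CD8 T barcodes. These levels follow from the filter and do not check it. In bulk sums of this kind, fewer cells with a transcript and less of it per cell cannot be told apart, so shares of barcodes stand beside the levels.

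The receptor genes of the marker-free set were those of alpha-beta CD8 T cells. Trac, the constant gene of the alpha chain, was found without Trdc in 325 of 351 WT barcodes (92.6%, 89.3 to 95.1) and 347 of 368 KO barcodes (94.3%, 91.4 to 96.4). The other CD8 T barcodes gave 92.9% and 94.3%, inside those intervals. In 122 WT tumour barcodes without Cd3, of a median 32276.5 UMIs against 6269 in the set, the share was 17.2%. Trac stood at 750.8 CPM against 805.5 CPM in WT and 696.1 against 697.0 CPM in KO. The beta chain constant genes Trbc1 and Trbc2 were at 874 and 2002 CPM in the WT set and at 754 and 1551 CPM in the KO set, within 0.88 to 1.27 times the level of the other CD8 T barcodes.

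Trdc, the constant gene of the delta chain, marked few of the chosen barcodes. It was found without Trac in 5 marker-free WT barcodes (1.42%, 0.464 to 3.29) and 2 KO barcodes (0.543%, 0.0659 to 1.95), against 11 of 6657 and 2 of 6200 other CD8 T barcodes and none of 122 WT tumour barcodes. At a fixed depth of 2000 UMIs, where Trac is missed more often, these shares were 1.42% and 1.09%, against 0.456% and 0.0487%. The comparison set needed a Cd8a or Cd8b1 UMI and the chosen set did not. Before the marker filter, 3 WT and 2 KO Cd3 positive barcodes with Trdc and no Trac held no such UMI and were in neither set. A gamma chain constant gene (Trgc1 to Trgc4) was found in 10.5% of the WT set and 17.7% of the KO set, against 13.5% and 12.0% of the other CD8 T barcodes, so the order differed between libraries. Among these genes Trgc1 stood at 21.3 CPM in the KO set against 3.10 CPM in the other KO barcodes (6.86, 5.06 to 9.21), while in WT it stood at 14.0 against 14.2 CPM (0.98, 0.68 to 1.37). Trgc2 stood at 20.8 against 38.1 CPM in WT and 29.3 against 41.0 CPM in KO, and Trgc3 and Trgc4 were below the limit for a measured gene. Gamma variable genes were found in 5.13% and 7.07% of the sets, against 6.22% and 7.29%.

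The 9 chosen barcodes with Trdc and no Trac were described by their counts in each library. All 9 also held UMIs of Trbc2, the beta chain constant gene. Cd8a and Cd8b1 were each found in 2 of the 7 WT barcodes and in none of the 2 KO barcodes. The 7 WT barcodes held 16 Trdc UMIs in all, with Sox13, a transcription factor of gamma-delta cells, in 3 and Il17a in 4. Each of Trgc1, Trgc2, Trgc3 and Trgc4 had 1 UMI in these 7. The 2 KO barcodes held 34 Trdc UMIs, 29 of them in 1 barcode, together with 12 UMIs of the delta variable gene Trdv4, 8 of Trgc1 and 3 of Trgv2. Over the whole marker-free set Trdv4 had 11 UMIs in WT and 13 in KO, against 12 and 0 UMIs in the far larger sets of other CD8 T barcodes. These UMIs lay in 3 chosen barcodes of each library, and a single barcode held 9 of the 11 in WT and 10 of the 13 in KO.

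Coreceptor transcripts were present in most chosen barcodes but in fewer than in the comparison set. Cd8b1 was found in 82.6% of the WT and 88.3% of the KO marker-free set, and Cd8a in 79.2% and 82.3%. The shares of 96.3% and 95.9% for Cd8b1 in the other CD8 T barcodes follow in part from their choice by a Cd8 UMI. Cd4 had no UMI in 351 WT or 368 KO barcodes, and a count of 0 allows a share of barcodes with a Cd4 UMI of up to 0.855% and 0.815% (3 counts). This limits barcodes with a UMI, not cells that express Cd4. Zbtb16, the PLZF transcription factor of natural killer T and other innate-like T cells, was found in 4 barcodes of each library, and Trav11, the alpha segment of invariant natural killer T cells, in none. Foxp3, the regulatory T cell factor, was found in 2.56% and 1.90%, against 0.466% and 0.661%.

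**Figure D2:**
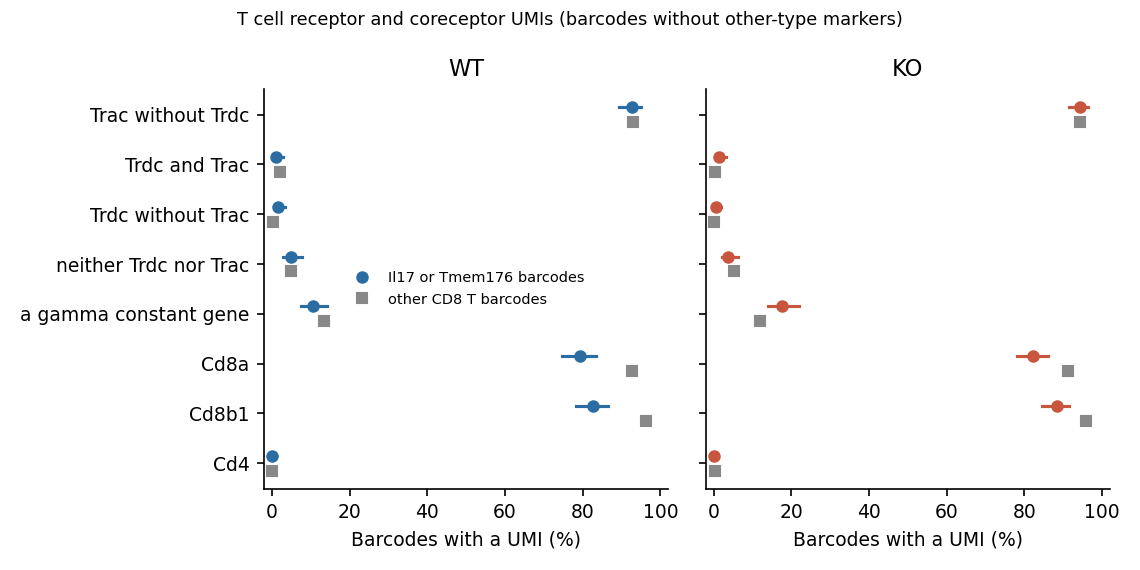
Share of barcodes with a UMI (horizontal axis, percent) of receptor and coreceptor genes (vertical axis) in WT (left) and KO (right), for the marker-free Il17 or Tmem176 barcodes (circles) and the marker-free other CD8 T barcodes (grey squares); lines are 95% counting intervals. Trac without Trdc lies above 92% in every set, Trdc without Trac below 1.5%, and Cd8a and Cd8b1 are lower in the chosen barcodes.

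Type 17 genes that the rule did not use stood out in both libraries. In the marker-free set 100 of 7009 measured genes (1.43%) were called higher than in the other CD8 T barcodes and 42 (0.599%) lower. A gene counted as measured when it reached 10 CPM in either set. Genes at that level only in the chosen barcodes could not be called lower, and those only in the other barcodes could not be called higher. The list counts and medians below hold such genes. The 12 highest by the rule for named genes were Il22, Il1r1, Ccr6, Hey1, Plcb4, Nav2, Ramp1, Cpm, Hlf, Ccr4, Serpinb1a and Tnfrsf25. Of the 627 genes called higher over all chosen barcodes, 37 were also among these 100, and 25 of the 54 called lower were among the 42.

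Among the cytokines, Il22, the gene of interleukin 22, which acts on epithelia together with interleukin 17, stood highest. Il22 was at 90.9 CPM in the WT set and 0.99 CPM in the other CD8 T barcodes, a ratio of 91.5 (66.3 to 129), and at 59.2 against 0.29 CPM in KO, a ratio of 206 (117 to 393). It was found in 15.1% of the WT barcodes (11.5 to 19.3) and 8.15% of the KO barcodes (5.57 to 11.4), against 0.24% and 0.113% of the other CD8 T barcodes and none of 122 WT tumour barcodes without Cd3. These tumour barcodes had a median of 32276.5 UMIs, and the 17 in KO a median of 47967. A single barcode held 86 of the 192 KO UMIs, and 59 of 241 in WT. Of 8 measured members of the cytokine list, 3 were called higher and none lower, with medians of 0.63 and 0.73 on the log2 scale in WT and KO against -0.063 and -0.043 for all measured genes. Il22 was measured only through the chosen barcodes, so it could not be called lower. The others called were Tnfsf8, the CD30 ligand, at 178.8 against 56.8 CPM in WT and 338.5 against 76.6 CPM in KO, and Areg, the growth factor amphiregulin, at 53.2 against 15.4 and 86.0 against 36.7 CPM. Csf2, Tnf, Tnfsf11, Ltb and Lta were not called, and Tnf stood lowest, at log2 ratios of -0.11 and -0.32.

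Receptors of type 17 cells also stood higher. Of 16 measured members of the list of type 17 receptors and surface proteins, 8 were called higher and none lower, with median log2 ratios of 1.38 in WT and 1.05 in KO. Of these 8, Il1r1, Ccr6, Il17re, Il1rl1, Aqp3 and Ltb4r1 were measured only through the chosen barcodes, so they could not be called lower. Only Ramp1 and Il18r1 could have been called either way. Il1r1, the signalling receptor of interleukin 1, was at 44.9 against 0.97 CPM in WT (46.2, 32.4 to 66.9) and 22.8 against 0.35 CPM in KO (64.4, 37.1 to 118). It was found in 18.2% of the WT set and 12.2% of the KO set, against 0.466% and 0.210%, and at 2000 UMIs in 8.55% and 3.54%. Tumour barcodes without Cd3 held Il1r1 at 2000 UMIs in 7 of 122 in WT and 2 of 17 in KO, so the KO share was not above theirs, and the part of tumour RNA in this was not tested. Ccr6, the receptor for CCL20, was at 37.7 against 1.33 CPM in WT (28.5, 20.5 to 39.9) and 41.0 against 1.06 CPM in KO (38.6, 27.5 to 54.8). Ccr6 was found in 18.8% of both sets (66 of 351 and 69 of 368 barcodes), against 0.691% and 0.548% of the other CD8 T barcodes and none of the 122 and 17 tumour barcodes. At 2000 UMIs the Ccr6 shares were 7.69% and 8.17%, against 0.213% and 0.114%. Il17re, a receptor subunit for interleukin 17C, stood at 24.1 against 0.26 CPM and 13.6 against 0.31 CPM. The remaining called members were Ramp1, a coreceptor for the neuropeptide CGRP, Il1rl1, the interleukin 33 receptor, Il18r1, the water and glycerol channel Aqp3 and the leukotriene B4 receptor Ltb4r1. Il6ra, Il7r, Cxcr6, Ccr2, Icos, Cd44, Itgae and Itgb7 were not called. Il7r, the interleukin 7 receptor, came near, at 1085 against 441.7 CPM in WT and 996 against 567.5 CPM in KO, and Cxcr6 was lowest, at log2 ratios of -0.13 and -0.15.

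Of the 10 measured transcription factors of the type 17 list, Maf and Ahr were called higher and none lower. Maf was at 262 against 121 CPM in WT and 206 against 65.0 CPM in KO, and Ahr, the aryl hydrocarbon receptor, at 58.1 against 26.1 and 41.3 against 19.8 CPM. Rora, Batf, Irf4, Ikzf3, Nfkbiz, Bhlhe40 and Gata3 were not called, nor was Stat3, which stood lowest at -0.52 and -0.23. Il23r, the receptor of the cytokine that sustains type 17 cells, had 11 UMIs in WT and 32 in KO, against 11 and 10 in the comparison sets.

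A further list held genes known from interleukin 17 producing gamma-delta cells. Of its 14 measured members 6 were called higher, Mmp25, Serpinb1a, Actn2, Igf1r, Furin and Krt83, and none lower, so genes of that list stood higher in barcodes whose receptor transcripts were mainly Trac. Mmp25, a membrane anchored metalloproteinase, was at 18.1 against 0.84 CPM in WT and 21.6 against 0.84 CPM in KO. Mmp25 and Igf1r were measured only through the chosen barcodes, so they could not be called lower. Serpinb1a, a serine protease inhibitor, was at 226 against 37.4 and 229 against 32.6 CPM, and was found in 156 of 351 WT and 153 of 368 KO barcodes. Capg, S100a4, S100a6, Lgals3, Ly6g5b, Cxcr3, Cd9 and Rgcc were not called, and Lgals3 was lowest at -0.51 and -0.97. Sox13 had 2 UMIs in the WT set and 1 in the KO set, and Blk, a kinase of the same cells, 9 and 0.

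Genes outside the type 17 lists were named by rank alone. Hey1, a transcriptional repressor downstream of Notch, was at 67.9 against 3.29 CPM in WT (20.6, 16.5 to 25.8) and 59.5 against 2.84 CPM in KO (21.0, 16.7 to 26.4). It was found in 23.6% and 24.5% of the set against 1.67% and 1.24% of the other CD8 T barcodes and 1 of 122 WT tumour barcodes, so it marked more of the chosen barcodes than Ccr6. Plcb4, a phospholipase C, was at 30.2 against 1.19 and 28.1 against 1.40 CPM. Nav2 was at 37.0 against 2.45 and 45.9 against 2.68 CPM, and Cpm, carboxypeptidase M, at 146 against 16.5 and 137 against 16.2 CPM. Hlf, a PAR bZIP transcription factor, was at 44.5 against 5.30 and 60.4 against 6.65 CPM. Ccr4, a receptor for CCL17 and CCL22, and Tnfrsf25, the receptor of TL1A, stood 12.9 and 8.33 times higher in WT and 8.31 and 6.13 times higher in KO.

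**Figure D3:**
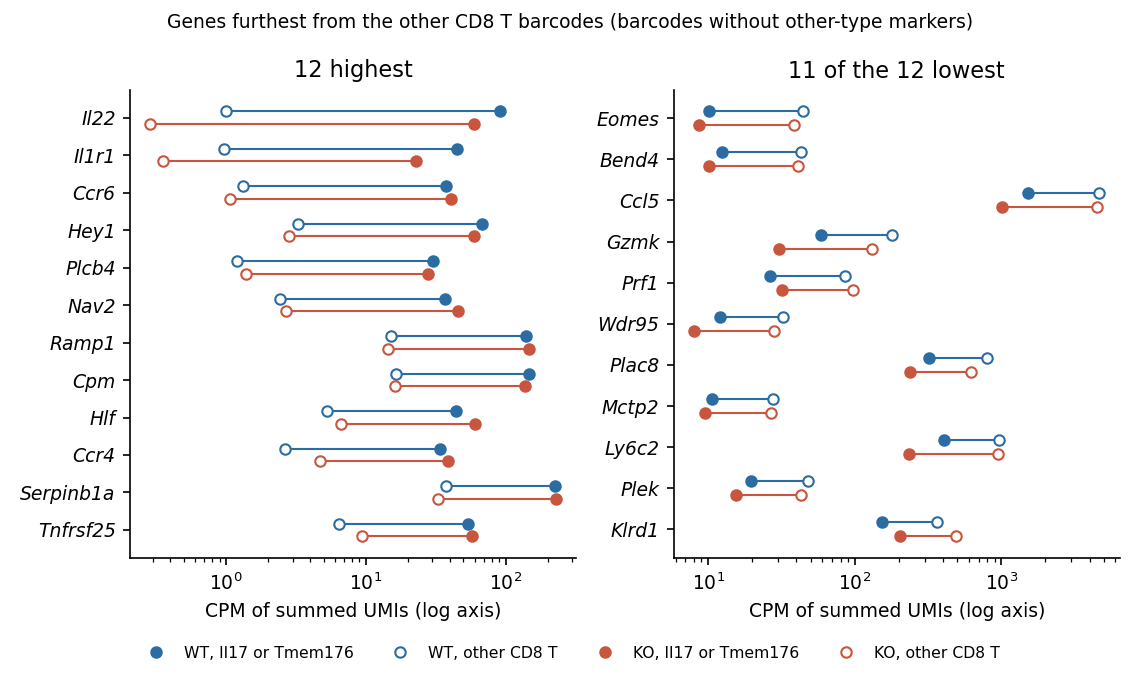
Level in CPM of summed UMIs (horizontal log axis) of the 12 highest and 11 of the 12 lowest genes by rank (vertical axis) in the marker-free Il17 or Tmem176 barcodes (filled circles) and the other CD8 T barcodes (open circles), WT in blue and KO in red. Every line points the same way in both libraries, from 206 times higher for Il22 in KO to 0.22 times for Eomes and Ccl5 in KO.

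Cytotoxic genes stood lower. Of 17 measured cytotoxic genes 9 were called lower and none higher, with median log2 ratios of -1.23 in WT and -1.09 in KO. Ccl5, a chemokine of effector CD8 T cells, was at 1512 CPM in the WT set and 4675 CPM in the other CD8 T barcodes (0.32, 0.31 to 0.33), and at 1016 against 4530 CPM in KO (0.22, 0.22 to 0.23). Prf1, the pore forming protein perforin, was at 26.4 against 86.1 CPM in WT and 32.1 against 97.4 CPM in KO. Gzmk was at 59.2 against 179.4 and 30.5 against 130.4 CPM. Ifng was found in 17.9% and 22.6% of the set against 39.8% and 40.9%. Gzmb, Gzma, Ccl3, Ccl4, Cst7 and Klrk1 were lower in WT by more than 2 times but not in KO: Gzmb stood at 0.454 times the other barcodes in WT and 0.612 times in KO, and Ccl3 at 0.132 and 1.38 times. Nkg7, Fasl, Xcl1, Klrd1 and Klrc1 were called too.

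Among 16 measured exhaustion genes 2 were called lower, Entpd1 and Eomes, and none higher. Eomes, a T-box factor of effector and exhausted CD8 T cells, was at 10.2 against 44.4 CPM in WT (0.23, 0.15 to 0.34) and 8.63 against 38.4 CPM in KO (0.22, 0.15 to 0.33), and led the 12 lowest genes by rank. Others of these 12 were Bend4, Ccl5, Gzmk, Prf1, Wdr95, Plac8, Mctp2, Ly6c2, Plek and Klrd1. Pdcd1, the gene of PD-1, was found in 37.3% and 47.8% of the set against 63.3% and 62.3%, and stood at 0.510 and 0.653 times the level of the other barcodes. Nr4a1 was highest of the list, at log2 ratios of 0.74 and 0.55. Of 14 naive and memory genes, Dapl1 and Ly6c2 were called lower and none higher, and Il7r was highest. Of 7 measured innate-like genes, Il18r1 was called higher and Ly6c2 lower.

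Genes that every T cell uses differed little. None of 18 measured CD3 and receptor signalling genes was called, and their median log2 ratios were -0.21 and -0.19, from Cd27 (-0.70 and -0.54) to Lat (0.21 and 0.27). Cd3d, Cd3e and Cd3g are on this list, and both sets were chosen by a Cd3 UMI, so their values are descriptions. None of 17 cell cycle genes was called (medians -0.15 and 0.23, from Tyms to Cenpa), and none of 18 glycolysis and hypoxia genes (medians -0.21 and 0.049, from Slc2a3 to Hk2). Of 17 interferon response genes 2 were called lower, Ifit3 and Ifit3b, and none higher, with Oasl2 highest. Cd74, the class II invariant chain, was called higher, at 71.3 against 25.0 CPM in WT and 86.0 against 25.4 CPM in KO. Cd74 was picked after its values were seen. It is on the dendritic list but not among the genes the marker filter counted. That list had UMIs of 7 of its 12 genes in WT and 8 in KO, at a summed 239 and 276 CPM against 203 and 189 CPM. Flt3, Clec9a, Cd209a and Fscn1 were at 0 in both libraries, and Xcr1 was at 0 in WT only. The filter removed barcodes with 2 or more UMIs of the genes it counted on this list. Low counts of those genes therefore follow from the filter and do not bear on Cd74. The part of dendritic cell RNA in the Cd74 level was not tested.

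**Figure D4:**
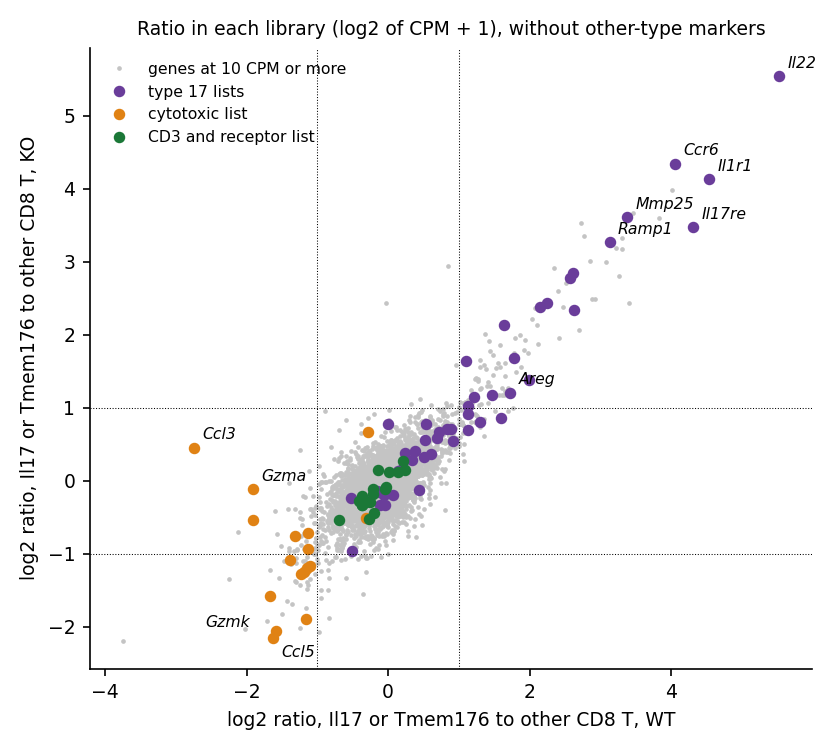
Log2 ratio of marker-free Il17 or Tmem176 barcodes to other CD8 T barcodes in WT (horizontal axis) and KO (vertical axis), with 1 CPM added, for each gene at 10 CPM or more (grey), the 4 type 17 lists (purple), the cytotoxic list (orange) and the CD3 and receptor list (green); dotted lines mark a 2-fold ratio. Il22, Il1r1, Ccr6 and Il17re lie at the upper right, Ccl5 and Gzmk at the lower left, and Ccl3 and Gzma are low in WT only.

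The levels of type 17 genes differed by which condition of the rule a barcode met, a split among marker-free barcodes made after the data were seen. Marker-free barcodes that met both conditions, 88 in WT and 86 in KO, stood furthest from the other CD8 T barcodes. Hey1 was found in 38 of 88 WT and 33 of 86 KO barcodes with both, 16 of 85 and 17 of 76 with Il17 only, and 29 of 178 and 40 of 206 with Tmem176 only. Serpinb1a stood at 433 and 337 CPM with both conditions, against 159 and 205 CPM with Il17 only and 163 and 192 CPM with Tmem176 only. In the barcodes with both, 14 of 17 cytotoxic genes were called lower and 10 of 16 type 17 receptors higher, where 2.39% of 7040 measured genes were called lower and 2.33% higher.

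Eomes and Gzmk ran the other way. With both conditions Eomes was found in 1 of 88 WT and 2 of 86 KO barcodes, against 13 of 85 and 8 of 76 with Il17 only, and its level was 3.17 and 2.61 CPM against 23.5 and 21.2 CPM. Gzmk was at 25.4 and 1.30 CPM with both, 114.0 and 37.8 CPM with Il17 only, and 51.3 and 40.2 CPM with Tmem176 only. Cd8b1 was lower with both conditions, at 343 CPM in WT and 530 CPM in KO, than with Tmem176 only, at 641 and 660 CPM, while Trac was at 774 and 688 CPM against 717 and 689 CPM. Barcodes with Tmem176 only held no Il17 by the rule, yet Ccr6 was found in 25 of 178 and 34 of 206 of them, and Il22 in 18 and 5.

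Among barcodes with Il17, those with a single Il17 UMI differed from those with more. Without the Tmem176 condition there were 49 in WT and 25 in KO, and Eomes was found in 12 and 7 of them, at 34.7 and 52.5 CPM, against 44.4 and 38.4 CPM in the other CD8 T barcodes. Where Il17a and Il17f together reached 2 UMIs, also without the Tmem176 condition, there were 36 WT and 51 KO barcodes. Eomes was found in 1 of them in each library, and Ccl5 stood at 1741 and 331 CPM, against 2948 and 2609 CPM in the single UMI barcodes. Hey1 was found in 11 of the 36 and 14 of the 51, against 5 of 49 and 3 of 25. At the Tmem176 threshold, the 62 WT and 69 KO barcodes with exactly 3 Tmem176 UMIs and no Il17 held Ccr6 in 6 and 10, and the 100 and 84 with 2 UMIs, just outside the rule, held it in 7 and 3. Eomes was at 9.43 and 8.38 CPM just inside and 19.8 and 7.31 CPM just outside.

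**Figure D5:**
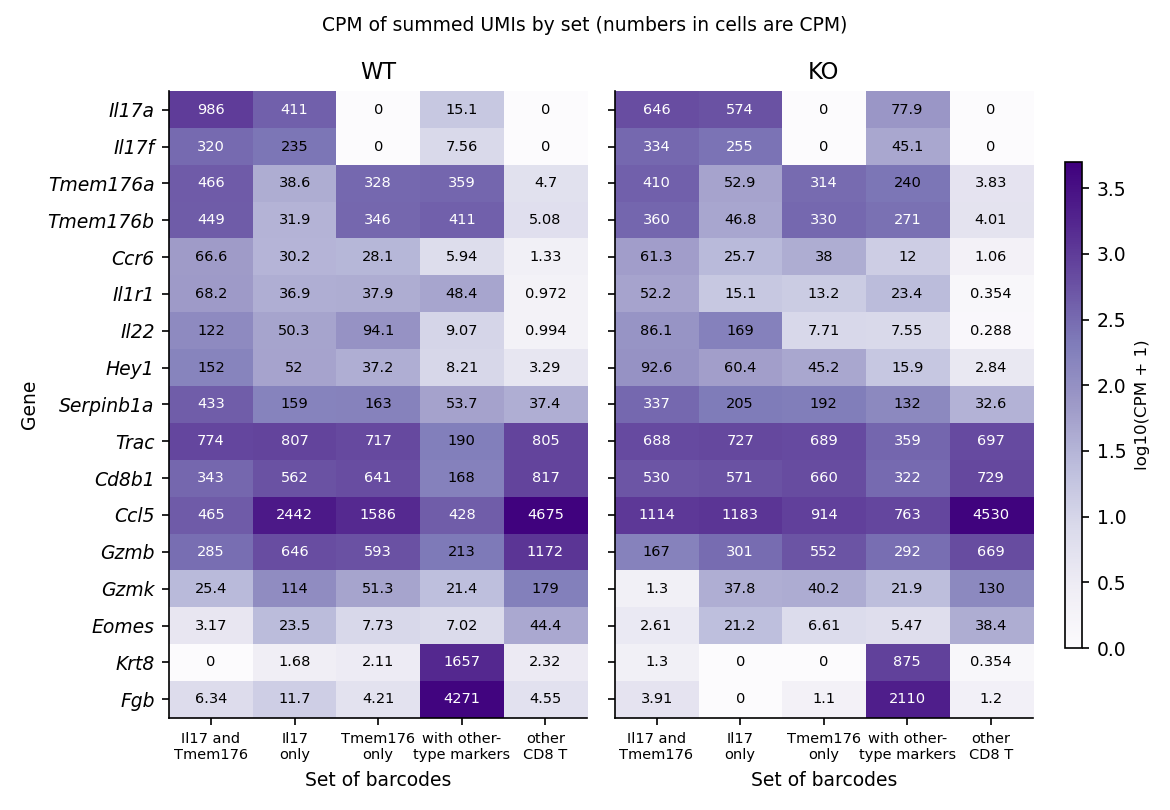
Level (CPM of summed UMIs, printed in each cell and shaded on a log10 scale) of 17 genes (vertical axis) in marker-free barcodes with both conditions, with Il17 only, with Tmem176 only, in the chosen barcodes with other-type markers, and in the marker-free other CD8 T barcodes (horizontal axis), for WT (left) and KO (right). Hey1 and Serpinb1a are highest with both conditions, Ccl5, Gzmb and Gzmk in the other CD8 T barcodes, and Krt8 and Fgb in the barcodes with other-type markers.

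Variable segments of the beta chain were seen in about the same share of marker-free chosen barcodes and of other CD8 T barcodes, 19.9% and 18.2% in WT and 20.9% and 18.8% in KO. The segments were many: 14 beta segments among 70 assigned WT barcodes and 17 among 77 in KO. Trbv29 was found in 20 of the 70 WT barcodes (28.6%, 18.4 to 40.6) against 71 of 1213 other CD8 T barcodes (5.85%, 4.60 to 7.33). In KO it was found in 11 of 77 (14.3%, 7.35 to 24.1) against 147 of 1167 (12.6%, 10.7 to 14.6). In WT, Trbv29 was found in 12 of 36 assigned barcodes with Il17 and 8 of 34 with Tmem176 only. This segment was picked after its values were seen. Alpha segments were assigned in 52 WT and 71 KO barcodes, with 31 different segments in each library. Transcript counts do not give clones, and the share of 1 mouse of the 3 in a pool is not known.

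The KO library was then compared with the WT library within the chosen barcodes. All of them made up 6.58% of kept barcodes in WT and 6.46% in KO, and those with Il17 made up 2.34% (2.04 to 2.67) and 2.68% (2.34 to 3.04). The intervals overlap, and with 1 library per group the difference has no replicate check. Summed over all chosen barcodes, 194 of 8450 genes (2.30%) were at least 2 times higher in KO and 849 (10.0%) at least 2 times lower. The 5 highest were Cstdc5, Ccl3, Krt14, Ccl1 and Lgals7 and the 5 lowest Serpina1a, Saa3, Serpina1c, Serpina1b and Cthrc1, among them genes of epithelial keratin and of secreted plasma proteins. Cstdc5 had 438 UMIs in KO and 0 in WT, and Serpina1a 0 in KO and 1052 in WT. The share of UMIs from barcodes with other-type markers moved with this, 77.7% in WT and 54.2% in KO. Without those barcodes 34 of 7100 genes (0.479%) were higher and 20 (0.282%) lower.

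The measured genes of the type 17 lists were within 2 times of each other in the marker-free sets of both libraries. Il17a stood at 269.8 CPM in the KO set against 327 CPM in the WT set (0.82, 0.75 to 0.91), and Il17f at 131 against 129 CPM (1.02, 0.88 to 1.17). Both are genes of the rule, so these levels are descriptions. The 5 barcodes with the most UMIs held 47.2% of those of Il17a in WT and 28.8% in KO. For Il17f they held 31.9% and 36.2%. The intervals treat UMIs of 1 barcode as independent, so they do not show that Il17a is lower in KO. Ccr6 was 1.09 times as high in KO (0.83 to 1.42) and Hey1 0.88 times (0.71 to 1.08). Il1r1 was lower in KO, at 22.8 against 44.9 CPM (0.51, 0.37 to 0.68), and it was lower among the other CD8 T barcodes too (0.36, 0.19 to 0.66). Il22 stood at 0.65 times the WT level (0.54 to 0.79) and Il23r at 2.38 times (1.17 to 5.23, from 32 and 11 UMIs). Maf was at 0.78 times in the set and 0.54 times in the other CD8 T barcodes, and Gzmb at 0.77 and 0.57 times.

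The 5 genes that stood highest in KO against WT in the marker-free set rested on few barcodes. Scin, an actin severing protein, stood 14.4 times higher in KO (5.93 to 45.4), from 88 UMIs against 5, and 18 of 368 KO barcodes held them. Ccl3, a chemokine, stood 8.22 times higher, and 1 barcode held 100 of its 171 UMIs. Ccl1 stood 3.49 times higher and 1 barcode held 221 of 350 UMIs, and Il13, a type 2 cytokine, stood 3.45 times higher with 50 of 97 UMIs in 1 barcode. Tnfsf4, the OX40 ligand, was the most evenly spread of these 5, at 23.1 against 6.79 CPM (3.40, 2.01 to 6.05), in 28 KO barcodes and 7 WT barcodes. In the other CD8 T barcodes Ccl1 was 2.58 times and Il13 2.32 times higher in KO, and Scin 1.48, Tnfsf4 1.17 and Ccl3 0.78 times. The intervals treat UMIs of 1 barcode as independent and are too narrow where 1 barcode holds most of them.

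The 5 lowest in KO were Emp1, Tdrp, Rflnb, Klf2 and Ecsit. Emp1, a membrane protein, was at 88.5 CPM in the KO set against 219 CPM in the WT set (0.40, 0.35 to 0.47), in 136 of 368 against 215 of 351 barcodes. Klf2, a transcription factor of T cell quiescence and migration, was at 176 against 417 CPM (0.42, 0.38 to 0.47), in 181 against 236 barcodes. Both were lower in KO among the other CD8 T barcodes as well, at 0.59 and 0.57 times. For Tdrp, Rflnb and Ecsit the other CD8 T barcodes stood at 0.94, 0.91 and 0.81 times.

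The rule was also applied to the transfer libraries. It took 373 of 10538 kept barcodes of the library of young donor cells and 150 of 8798 of the library of old donor cells. Il17a or Il17f was found in 20 and 7 of them, and 8 and none met both conditions. Trdc without Trac was found in 1 and none. Ccr6 was found in 3 and 2 of these barcodes and Il22 in 2 and none. The kit differed from that of the WT and KO libraries, so these counts are not compared with theirs.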

How the data were processed

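The data are the authors' deposited filtered matrices of UMI counts, 1 library per group, with whole-number counts per gene and barcode, not normalized. Per the file headers the WT and KO matrices were made with Cell Ranger 6.1.1 and those of the transfer libraries with 7.1.0. Seurat 3.2.3, Cell Ranger 6.0.0 and mm10 appear in the submitters' processing notes. Barcodes were kept by the filters given in the rule. Counts were summed over barcodes and scaled to 1000000 (CPM). The ratio of 2 sums has an exact conditional binomial interval, a share has a Clopper-Pearson interval, and log2 ratios have 1 CPM added. A gene was measured with at least 20 UMIs over both sets and 10 CPM in one of them, in each library. No count model was used, because pooled mice leave 1 sample per group, and cells are not replicates. PCR copies are removed by UMIs, and free RNA is not, so intervals and limits cover counting error only. No doublet caller was run: barcodes with 2 or more UMIs of a marker list, and the 8% with the most UMIs, were left out as alternatives. Thinning drew 2000 UMIs per barcode, leaving out 79 other WT barcodes (71 of them marker-free), 45 other KO barcodes and 1 chosen marker-free KO barcode.

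Named genes are those of the rule and of the receptor, the 12 highest and 12 lowest by the smaller of both libraries' log2 ratios (at least 20 CPM and 50 UMIs, without receptor segments, mitochondrial, ribosomal, haemoglobin, sex-linked and other-type marker genes), the highest and lowest of each list with all type 17 genes, and the 5 highest and 5 lowest by KO to WT ratio. One ranked gene and one type 17 gene are not reported here. The ranking in marker-free barcodes was added after the data were seen. The members and lists were chosen with earlier results of these data known. The intervals were tested on simulated data. Sequences are from RefSeq. Python 3.11.15, numpy 2.4.6, scipy 1.17.1, pandas 2.3.3 and matplotlib 3.10.9 were used.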

Additional observations from a re-analysis of the deposited data

How the results depend on the processing

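No paired analysis was possible because each group has 1 library and the labels give no replicate numbers. Thinning every barcode to 2000 UMIs lowered the share that met the rule to 2.16% in WT and 2.24% in KO, and the share of these with Trdc and no Trac was 2.49% and 1.60%. The share was 5.10% and 4.68% with a Tmem176 minimum of 5, 2.34% and 2.68% with the Il17 condition alone, 5.48% and 5.27% with the Tmem176 condition alone, 4.92% and 5.50% of barcodes without other-type markers, and 5.06% and 5.69% without the 8% of barcodes with the most UMIs.

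The 627 genes called higher became 143 with Il17 alone, 100 without other-type markers, 118 without the top 8%, 199 with equal weight per barcode and 1624 with no filter. The 54 called lower became 92 with a Tmem176 minimum of 5, 23 with 10 CPM added and 90 with no filter. Higher in KO were 70 (Il17 alone), 34 (no other-type markers), 23 (no top 8%), 42 (equal weight), 69 (10 CPM added) and 339 genes (no filter), and lower were 161, 20, 131, 546, 360 and 1503 in the same order.

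Without other-type markers the log2 ratio to the other CD8 T barcodes changed sign in WT for Sox9 (-0.73), Wfdc2 (-0.34), Rhox5 (-0.84), Cp (-0.40), Clu (-0.85), Serpinh1 (-0.31) and Trf (-0.58), and in KO for Tm4sf1 (-0.15), Mgp (-0.19), Wfdc2 (-0.31), Rhox5 (-0.096), Serpinh1 (-0.12) and Nupr1 (-0.15). Without the top 8% it changed sign in KO for Mgp (-0.21), Wfdc2 (-0.023) and Rhox5 (-0.17). The KO to WT log2 ratio of Lgals7 was -0.83 with Il17 alone, -0.12 without other-type markers and -0.66 without the top 8%, and that of Saa3 was 0.95 without the top 8%. The cause was not tested. Depth limits the rare transcripts: Il23r, Sox13 and the gamma and delta variable genes have too few UMIs to compare.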
